A study of Mus musculus with 12 samples.

Results

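The genes described here are mouse members of the PYHIN family, also called the interferon-inducible p200 family. They were found in the count table by symbol: Ifi204, Mnda, Pyhin1, Ifi203, Ifi205, Aim2 and Mndal, 7 of 22753 genes. The 7 were chosen by their difference between the gates, since several were lower in GFP-positive than in GFP-negative cells. Their values in that comparison are therefore given as a description, without a test. The filter on low counts kept 15179 genes, all 7 members among them.

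RNA was sequenced from mouse embryonic stem cells, which grow as pluripotent cells in medium with LIF and serum. Clones 4 and 10 came from Sphk1fl/fl Sphk2-/- mice, so the cells of every group lack Sphk2 and started with a floxed Sphk1. Sphk1 and Sphk2 encode the kinases that make sphingosine 1-phosphate. For 48 hours all cells were kept with (Z)-4-hydroxytamoxifen at 6 uM, and they were then sorted by the fluorescence of Cre-GFP. The clone 4 GFP-negative and clone 10 GFP-negative groups are labelled Sphk1fl/fl Sphk2-/-, and the clone 4 GFP-positive and clone 10 GFP-positive groups are labelled Sphk1-/- Sphk2-/-. Each of the 4 groups has 3 libraries, each at another passage. Clone 4 was at passages 11, 13 and 15 in GFP-negative and 11, 14 and 16 in GFP-positive replicates 1 to 3, and clone 10 at 11, 17 and 19 in GFP-negative and 12, 18 and 20 in GFP-positive replicates 1 to 3. Each clone is a single line, and no cells with intact Sphk2 or without the drug were analysed here. The promoter that drives Cre-GFP is not given in the sources used here. Replicates are thus later passages of a single line per clone, and p-values measure the spread between those libraries. In 5 of the 6 pairs of a clone that share a replicate number, the GFP-positive library was 1 passage later than the GFP-negative one, and clone 10 replicates 2 and 3 lie beyond every passage of clone 4. For those replicates clone and passage cannot be told apart.

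PYHIN proteins pair a pyrin domain, which binds other pyrin domains, with HIN domains, which bind DNA, although some members have only one of these parts. They are known as nuclear and cytosolic proteins that sense DNA, and most of their genes are switched on by interferon through the transcription factors STAT and IRF. The mouse genes lie side by side in one cluster, arose by repeated duplication and differ between strains.

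Library totals ran from 12968916 to 34258395 counts. Sphk1 was read at 0.694 to 4.30 CPM (the count scaled to 1000000 counts in the library) over the 12 libraries, and at 0.701 to 3.01 CPM in the libraries labelled GFP-positive. Counts per whole gene do not show which exons a deletion removes, so this is no check of the genotype, and the gates follow the labels throughout. The stem cell markers Pou5f1, Nanog and Esrrb were present at 314 CPM or more in every library. Both libraries of clone 10 replicate 3, the latest passages of the series, stood apart in most members, and in the pair of clone 10 replicate 1, which holds the shallowest library, 5 members differed between the gates in the other direction than in the remaining pairs. The results that rest on them are given with and without them.

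On mm10 (GRCm38), the members span chr1:173350879-174031755 by the gene coordinates that the authors deposited, a stretch of 681 kb. The order from the low end is Aim2 (chr1:173350879-173466040), Pyhin1 (chr1:173630859-173647928), Ifi204 (chr1:173747293-173766876), Mndal (chr1:173857221-173942491), Mnda (chr1:173896355-173912922), Ifi203 (chr1:173920407-173942672) and Ifi205 (chr1:174011998-174031755). In GENCODE M21, Mnda is named Ifi211 and Pyhin1 is named Ifi209. Aim2 and Pyhin1 are on the plus strand and the other members on the minus strand. Within 500 kb of the outermost members lie 41 genes of the table, 13 of them PYHIN genes.

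Promoter stretches are printed because they show how closely the members' start regions resemble each other and where an interferon response element occurs. RefSeq promoter windows of 300 bases (250 before and 50 after the gene start, build GRCm38.p6) matched 6 of the 7 members, Mndal with 2 windows. Each was searched on both strands for the core of the interferon-stimulated response element, which is GAAA and GAAA with any 2 bases between them, and for the core of the gamma-activated site, TTCNNNGAA. The core of the response element is in capitals below. For Mndal the stretch shown is from the second window. In Pyhin1 the capitals mark 1 of 2 sites with 1 mismatch, shown because its surroundings resemble those of a paralog, and in the neighbouring PYHIN gene BC094916 (Ifi214) they mark the exact match.
Mnda, chr1:173913034-173913123, minus strand: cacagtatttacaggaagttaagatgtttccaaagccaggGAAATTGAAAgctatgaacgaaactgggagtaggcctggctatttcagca
Ifi205, chr1:174031840-174031929, minus strand: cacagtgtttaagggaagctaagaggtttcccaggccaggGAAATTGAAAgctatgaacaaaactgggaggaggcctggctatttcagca
Ifi203, chr1:173942478-173942567, minus strand: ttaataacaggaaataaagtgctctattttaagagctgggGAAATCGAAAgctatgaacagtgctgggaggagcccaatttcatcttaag
Mndal, chr1:173880174-173880263, minus strand: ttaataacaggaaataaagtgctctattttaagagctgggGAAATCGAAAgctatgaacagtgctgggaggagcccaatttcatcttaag
Pyhin1, chr1:173630740-173630829, plus strand: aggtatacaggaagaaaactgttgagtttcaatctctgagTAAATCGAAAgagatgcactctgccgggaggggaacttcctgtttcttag
BC094916, chr1:173535987-173536076, minus strand: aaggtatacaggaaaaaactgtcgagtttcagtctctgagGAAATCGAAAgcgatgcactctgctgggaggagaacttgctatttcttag

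The stretches of Ifi203 and Mndal were identical over 90 of 90 bases, although they lie at different places. The other Mndal window also holds a core, and its stretch shared 19 of 90 bases with that of Ifi203. Those of Mnda and Ifi205 shared 81 of 90 bases, whereas Mnda and Ifi203 shared 47. The response element core was present in 4 of the 6 members with a window (Mnda, Ifi203, Ifi205 and Mndal) and in 5 of 6 other PYHIN genes. Over all genes with a window, 3.99% of 27025 held it, and 51.2% of 43 interferon-stimulated genes outside the family did. The Pyhin1 site shown differs from the core by G1T, counted from 1 at the 5′ end of the core, and its stretch shared 72 of 90 bases with that of BC094916. The other Pyhin1 site differs by G7C, and its stretch shared 33 of 90. The Aim2 window held no exact match and a site with 1 mismatch. A site with at most 1 mismatch was found in 35.4% of 32851 windows. The gamma-activated core was in no member's window, against 8.30% of all windows. A match describes letters only and is not a bound site.

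Aim2, which senses cytosolic DNA and assembles an inflammasome with the adaptor Pycard, was the most abundant member and the steadiest. In clone 4 its 3 GFP-negative libraries read 77.0, 71.8 and 46.4 CPM and its GFP-positive libraries 68.7, 69.1 and 52.6 CPM. In clone 10 the values were 42.8, 50.1 and 66.3 CPM in GFP-negative and 62.6, 60.2 and 78.6 CPM in GFP-positive libraries. The groups overlapped in both clones, and the 12 values varied with a coefficient of variation of 19.1%. Per kilobase of merged exon, the median level of Aim2 was 18.4 CPM, while the medians of the other members lay between 0.104 CPM per kilobase for Ifi205 and 0.680 for Ifi204.

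Ifi204, a nuclear and cytosolic protein often compared with human IFI16 and linked to DNA sensing and to cell differentiation, was the highest of the other 6 per kilobase. Its levels in clone 4 were 3.01, 9.90 and 6.31 CPM in GFP-negative and 0.721, 1.02 and 1.34 CPM in GFP-positive libraries. In clone 10 they were 1.31, 3.56 and 35.9 CPM in GFP-negative and 1.83, 1.57 and 15.5 CPM in GFP-positive libraries. The groups did not overlap in clone 4 and overlapped in clone 10, where the libraries of replicate 3 were far above the others. Here and for the members below, overlap describes the gate values that chose the members. The share of all genes without overlap is not given here, so nothing is read from it.

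Pyhin1, which has a pyrin and a HIN domain, was at 0.319, 5.63 and 4.17 CPM in clone 4 GFP-negative libraries and at 0, 0.871 and 0.934 CPM in GFP-positive ones. A count of 0 in the library of clone 4 GFP-positive replicate 1 allows up to 0.144 CPM, the worth of 3 counts, and covers counting error only. In clone 10 Pyhin1 read 0.540, 3.59 and 29.2 CPM against 0.471, 1.11 and 7.35 CPM. In both clones the groups overlapped, and replicate 1 was the lowest library of each gate.

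Ifi203, which encodes p203, was at 1.60, 2.14 and 2.19 CPM in clone 4 GFP-negative and at 0.144, 0.581 and 0.847 CPM in GFP-positive libraries, without overlap. In clone 10 it read 0.386, 2.45 and 19.9 CPM against 2.04, 0.512 and 7.54 CPM, with overlap. Mndal, whose gene overlaps Ifi203, was at 0.228, 2.19 and 1.5 CPM in clone 4 GFP-negative and at 0, 0.290 and 0.730 CPM in GFP-positive libraries. Mndal in clone 10 was at 0.154, 1.41 and 12.9 CPM against 1.15, 0.271 and 4.58 CPM, and its groups overlapped in both clones.

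Mnda, named after the myeloid nuclear differentiation antigen of human leukocytes, was at 1.19, 2.34 and 1.86 CPM in clone 4 GFP-negative libraries and at 0.240, 0.0968 and 0.292 CPM in GFP-positive ones. The clone 10 values of Mnda were 0.308, 0.920 and 12.7 CPM against 1.10, 0.391 and 5.18 CPM. Ifi205, which encodes p205, was at 0.501, 1.61 and 0.688 CPM in clone 4 GFP-negative and at 0, 0.194 and 0.234 CPM in GFP-positive libraries. In clone 10 Ifi205 was at 0.308, 0.368 and 6.83 CPM against 1.05, 0.241 and 3.30 CPM. For Mnda and Ifi205 alike, the gates were apart in clone 4 and overlapped in clone 10.

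**Figure D1:**
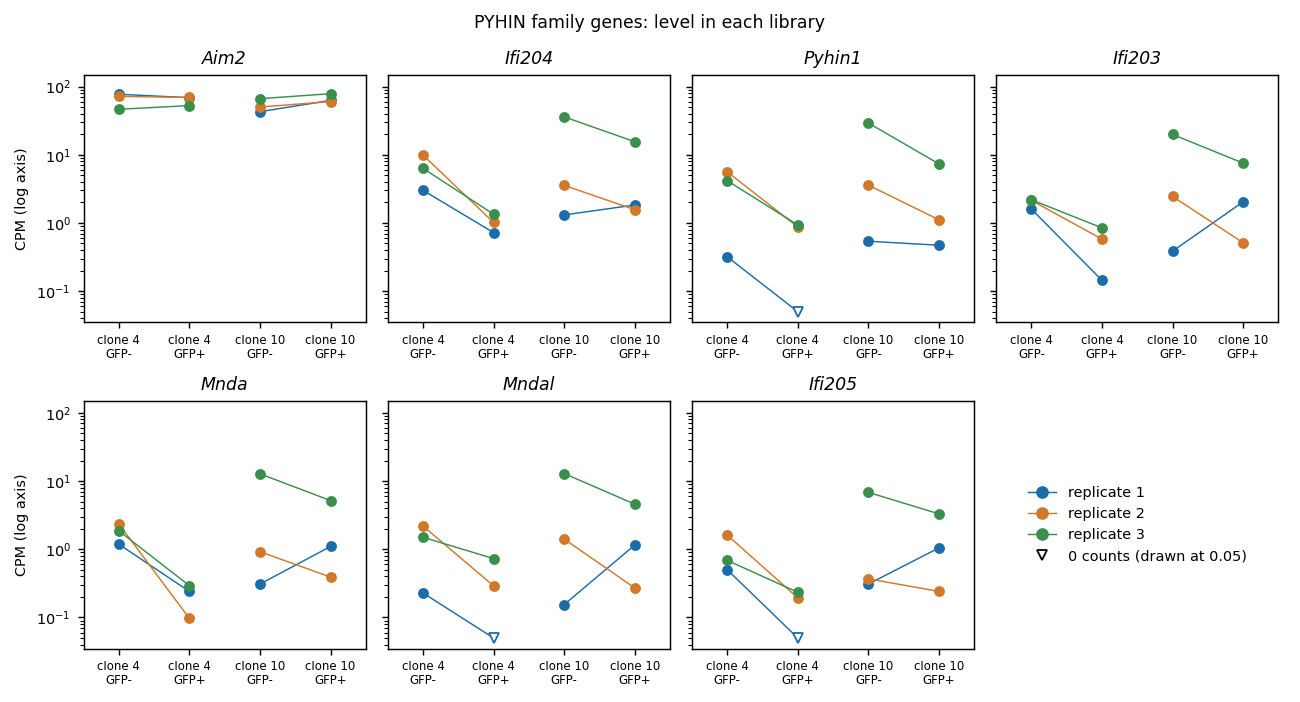
Level of each member in CPM (log axis) in the 12 libraries, by group, with a line joining the GFP-negative and GFP-positive library of a replicate. Aim2 is flat between 42.8 and 78.6 CPM, while the other 6 genes spread widely, with the clone 10 replicate 3 libraries on top and the line of clone 10 replicate 1 rising in 5 of the 6.

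Some of these levels cannot be assigned to a single gene with certainty. Of the 50-base stretches in the annotated transcripts of Mnda, 72.8% also occur in transcripts of other genes, chiefly Ifi205, Ifi204 and Mndal. The share was 33.7% for Pyhin1 (with Ifi214 first), 20.0% for Ifi204, 19.6% for Mndal, 18.6% for Ifi205 and 12.2% for Ifi203, but 0.628% for Aim2. The exons of Ifi203 overlap those of Mndal by 37 bases. How reads shared by paralogs were counted is not given in the sources used here.

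Between the gates, 6 of the 7 members were lower in GFP-positive cells on average over both clones, Pyhin1 most and Ifi203 least, and Aim2 was level. Within pairs of a clone that share a replicate number, the log2 change was -2.06 ± 0.26 (SE) for Pyhin1, -1.85 ± 0.40 for Mnda and -1.70 ± 0.24 for Ifi204. It was -1.46 ± 0.54 for Mndal, -1.45 ± 0.46 for Ifi205, -1.43 ± 0.48 for Ifi203 and 0.12 ± 0.09 for Aim2. The median over the 7 members was -1.46, beside 0.00 over all genes tested. In the fit of all libraries, which ignores the pairs, the standard errors were wider: Mnda was at -2.05 ± 0.82, Ifi204 at -1.86 ± 0.77 and Ifi203 at -1.52 ± 0.80.

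For each of the 6 variable members the difference was further from 0 in clone 4 than in clone 10. In clone 4, the log2 change within pairs was -2.97 ± 0.60 (SE) for Mnda, -2.51 ± 0.70 for Ifi205, -2.51 ± 0.34 for Ifi204 and -2.44 ± 0.39 for Pyhin1. Ifi203 (-1.92 ± 0.70) and Mndal (-1.88 ± 0.83) were at the smaller end, and Aim2 was at 0.00 ± 0.13. In clone 10 the values were -1.68 ± 0.34 for Pyhin1, -1.05 ± 0.70 for Mndal, -0.95 ± 0.64 for Ifi203, -0.90 ± 0.32 for Ifi204, -0.73 ± 0.51 for Mnda and -0.38 ± 0.57 for Ifi205. Aim2 in clone 10 was at 0.23 ± 0.13. In the fit of all libraries the standard errors of the 6 were larger. They ran from 1.12 for Ifi204 to 1.47 for Pyhin1 in clone 4, and from 1.05 for Ifi204 to 1.39 for Pyhin1 in clone 10.

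In the authors' deposited table for clone 4, the log2 fold changes were -1.45 for Mnda, -1.44 for Ifi204, -0.86 for Ifi203, -0.74 for Ifi205, -0.49 for Pyhin1, -0.38 for Mndal and -0.02 for Aim2. In the authors' deposited table for clone 10 they were -0.43 for Pyhin1, -0.40 for Mnda, -0.30 for Ifi204, -0.30 for Ifi203, -0.29 for Mndal, -0.28 for Ifi205 and 0.19 for Aim2. For every member and in both clones, the deposited value was smaller in size than that of the fit of all libraries, which ignores the pairs. That fit put Pyhin1 at -2.39 and Mndal at -1.77 in clone 4, where the mean of Pyhin1 went from 3.37 to 0.602 CPM. The order of the members in clone 4 also differed. The reason was not tested, so the deposited values are not read as a smaller fall in these counts.

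Pair by pair, Pyhin1 differed in the same direction in all 6 pairs, lower in GFP-positive cells, from -2.55 to -0.43 on the log2 CPM scale. The value of -0.43 is from clone 10 replicate 1, with 7 counts in the GFP-negative and 9 in the GFP-positive library. Its direction therefore comes from the scaling by library size. In clone 4 replicate 1 the Pyhin1 counts were 7 and 0. Of all genes tested, 7.29% were lower in all 6 pairs. Ifi204, Mnda, Ifi203, Ifi205 and Mndal were lower in 5 of 6 pairs, and 23.8% of genes were lower in at least 5. The exception each time was clone 10 replicate 1, where the GFP-positive library was higher by 0.17 for Ifi204, 1.28 for Ifi205, 1.34 for Mnda, 1.92 for Ifi203 and 2.16 for Mndal. Its GFP-negative library is the shallowest of the series, with 39 counts over the 6 genes together.

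**Figure D2:**
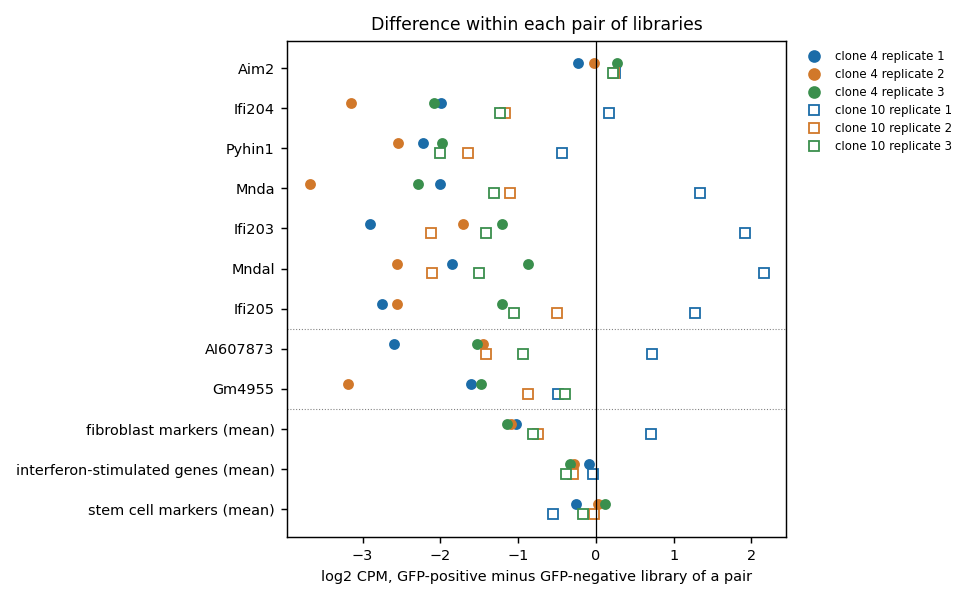
Difference in log2 CPM between the GFP-positive and GFP-negative library of each pair, for the 7 members, the other tested PYHIN genes AI607873 and Gm4955, and the means of 3 gene lists. The open blue square (clone 10 replicate 1) lies to the right of 0 for 5 of the 6 variable members and for the fibroblast markers, and Aim2 stays between -0.23 and 0.27.

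Leaving out single pairs moved the clone 10 values. Without clone 10 replicate 1, the changes there ran from -1.89 for Pyhin1 to -0.95 for Ifi205. Without clone 10 replicate 3, Ifi205 was at 0.34 and Mnda at -0.12.

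Whether the gate difference itself differed between the clones was fitted as an interaction. It is built from the gate values that chose the members and is not independent of that choice, so nothing is read from it about the family. The clone 10 minus clone 4 difference within pairs was 2.24 ± 0.80 (SE) for Mnda (adjusted p = 0.606), 2.14 ± 0.91 for Ifi205 (adjusted p = 0.639) and 1.61 ± 0.46 for Ifi204 (adjusted p = 0.539). It was smaller for Ifi203 (0.97), Mndal (0.83), Pyhin1 (0.76) and Aim2 (0.23). By edgeR, 0 of 7 members were called in either direction, where 0.0% of all genes were. Within pairs, 3 members had an unadjusted p under 0.05 (Ifi204, Mnda and Ifi205), beside 1167 of the 15179 genes tested. Without pairs 0 members did, beside 140 genes. DESeq2 called 0 members with or without pairs, where it called 0.408% of all genes within pairs and 0.0% without.

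Clone 10 was then compared with clone 4 within each gate, a contrast that did not itself choose the members but uses the same libraries. The levels in each gate also enter the gate difference that chose the members, so neither comparison is independent of that choice. In GFP-negative cells the 6 members other than Aim2 had higher means in clone 10, by 1.14 ± 1.05 (SE) on the log2 scale for Ifi204 to 1.98 ± 1.12 for Ifi203, and Aim2 was at -0.14 ± 0.22. With edgeR, 0 of 7 were called (adjusted p 0.511 to 0.819), where edgeR called 0.0461% of all genes. Of the members, 0 had an unadjusted p under 0.05, beside 1802 of the 15179 genes tested. DESeq2 called 0 members and 2.85% of all genes. By the labels, passage 11 is the only passage that GFP-negative libraries of both clones share (replicate 1). There clone 10 was lower than clone 4 for Ifi204, Ifi203, Mnda, Ifi205, Mndal and Aim2, by the levels given above. Pyhin1 had 7 counts in each library, so its higher CPM in clone 10 comes from the smaller library total. This sets 1 library against another at low counts: clone 10 and clone 4 had 2 and 5 for Mndal, 4 and 11 for Ifi205 and 17 and 66 for Ifi204. The direction of the means rested on 1 replicate. Without both libraries of clone 10 replicate 3, the difference was -1.27 for Mnda, -1.19 for Ifi205, -1.15 for Ifi204, -0.47 for Pyhin1, -0.45 for Mndal and -0.24 for Ifi203.

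In GFP-positive cells the clone 10 means were higher again, by 3.29 ± 1.25 (SE) for Mnda (adjusted p = 0.242), 3.26 ± 1.33 for Ifi205 (adjusted p = 0.281), 2.59 ± 1.18 for Ifi203 (adjusted p = 0.345) and 2.57 ± 1.12 for Ifi204 (adjusted p = 0.321). Mndal was at 2.39 ± 1.44, Pyhin1 at 2.23 ± 1.46 and Aim2 at 0.11 ± 0.22. By edgeR, 0 of 7 were called, where 1.11% of all genes were. An unadjusted p under 0.05 was found for 4 members, beside 2174 of the 15179 genes tested. DESeq2 called 1 member, Mnda, at 3.36 (adjusted p = 0.0396), where it called 5.88% of all genes. Without both libraries of clone 10 replicate 3 the edgeR differences were 1.77 for Mnda, 2.05 for Ifi205, 1.23 for Ifi203, 0.94 for Mndal, 0.75 for Ifi204 and 0.45 for Pyhin1.

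**Figure D3:**
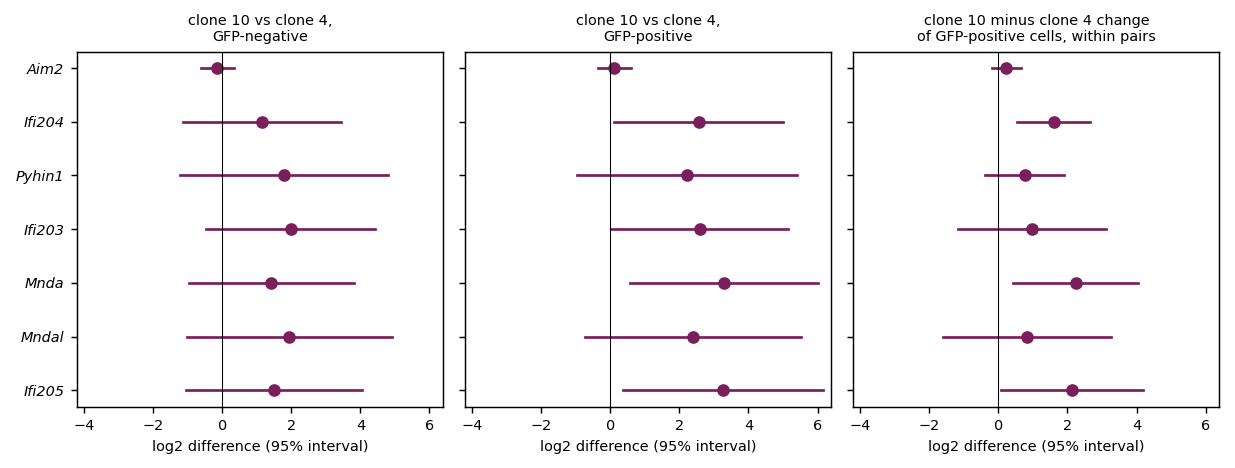
Log2 difference with its 95% interval for each member: clone 10 against clone 4 in GFP-negative cells and in GFP-positive cells (fit of all libraries), and the clone 10 minus clone 4 gate change (fit within pairs). Aim2 has a narrow interval around 0 in all 3 panels, while the intervals of the other members span several log2 units.

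The 6 variable members moved together from library to library. Over the 12 libraries, which they share along with depth, the 15 pairs among them correlated in log2 CPM at r = 0.787 to 0.965, with a median of 0.925. Correlations of Aim2 with the 6 ran from -0.06 to 0.23. After the group means were taken away, the 15 pairs still ranged from 0.707 to 0.950. Shared reads between paralogs can raise these values. Both libraries of clone 10 replicate 3 weigh heavily in them. The mean log2 CPM of the 6 members was 4.05 and 2.62 there, and at most 1.60 in the other libraries. Correlations without that pair are not given here.

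Of the 6 other PYHIN genes in the table, only AI607873 (Ifi207) and Gm4955 (Ifi206) passed the filter. Gm4955 was at 0.789 ± 0.443 CPM (SD, n = 3) in clone 4 GFP-negative and at 0.110 ± 0.107 CPM in clone 4 GFP-positive cells. The clone 4 GFP-positive libraries held 1, 1 and 8 counts of it. Over both clones Gm4955 fell by 1.61 within pairs (adjusted p = 0.0458), where 0.85% of all genes were called lower. The comparison and the libraries are those that chose the members, so this call is not independent of that choice. In the fit of all libraries neither gene was called. AI607873 was at -1.36 ± 0.31 (SE), with adjusted p = 0.0547, which missed the threshold. Their mean correlated at 0.977 with that of the 6 members. Ifi202b had 2 counts over all 12 libraries, and BC094916, whose promoter stretch is printed above, had 26.

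Most interferon-stimulated genes outside the family did not pass between the gates. Of 54 tested, 0 passed in the fit of all libraries, where 0.00659% of all genes were called lower. Within pairs, 6 fell in GFP-positive cells over both clones (Ifit3, Ifi44, Ifitm1, Gbp2, Isg15 and Zbp1), where 0.85% of all genes were called lower, and 1 rose (Sp110). Their median log2 change was -0.24, beside 0.00 over all genes. Within pairs, Ifit3, which binds viral RNA together with other IFIT proteins, fell by 1.40 (adjusted p = 0.0190), and Ifi44 fell by 1.49 (adjusted p = 0.0234). Isg15, a ubiquitin-like modifier, fell by 0.60. Sp110, a nuclear body protein, rose by 2.96. The count of 6 went to 0 without clone 4 replicate 1 (0.189% of all genes lower), clone 4 replicate 2 (0.233%) or clone 10 replicate 3 (0.13%). It was 2 without clone 4 replicate 3 (0.175%), 3 without clone 10 replicate 2 (0.577%) and 14 without clone 10 replicate 1 (2.64%). The mean of the list correlated with that of the 6 members at 0.796.

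The genes that make and relay the interferon signal were examined next. Of 16 tested interferon, receptor, kinase and factor genes, 1 fell over both clones within pairs and 0 rose, where 0.85% of all genes were called lower. The gene that fell was Ifngr2, a chain of the interferon gamma receptor (-0.61 ± 0.12, adjusted p = 0.0324). In clone 10 alone, Irf8 rose within pairs (1.64 ± 0.29, adjusted p = 0.0194) and 0 of the 16 fell. There 530 of 15179 genes were called higher. Without pairs 0 of 16 passed. Ifna1, Ifna2, Ifna4, Ifna5 and Ifnl3 had 0 counts in every library. Of 17 tested genes of cytosolic nucleic acid sensing, 0 passed in either direction between the gates. Within pairs over both clones, 0.85% of all genes were called lower and 2.51% higher. A count of 0 in so short a list is therefore not read as a result. Tmem173, which encodes the adaptor STING, was lower in clone 10 than in clone 4 GFP-positive cells, at 4.27 against 20.9 CPM (log2 difference -2.27, adjusted p = 0.0302). In that comparison 0.277% of all genes were called lower. The call was lost on leaving out clone 4 GFP-positive replicate 2 or 3, or clone 10 GFP-positive replicate 1 or 3, where 0 genes were called lower. Of 9 tested inflammasome partners, 0 passed, and the same limit holds for this list. Pycard, the adaptor that Aim2 binds, was at 44.9 CPM in clone 4 GFP-negative and 30.4 CPM in clone 4 GFP-positive cells (over both clones -0.58 ± 0.20, adjusted p = 0.132).

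Some fibroblast markers were lower in GFP-positive cells, in the fit within pairs. Of 22 tested, 8 fell over both clones (Acta2, Dcn, Loxl1, Postn, S100a4, Tagln, Timp1 and Vim), 14 did not pass and 0 rose, with a median of -0.72. Of all genes, 0.85% were called lower within pairs. In the fit of all libraries 0 markers were called, where 0.00659% of all genes were called lower. Among the abundant markers that did not pass, Fn1, fibronectin, was at -0.09 ± 0.15 (SE) and Sparc, a matrix protein, at -0.01 ± 0.11. The count was 5 without clone 4 replicate 1 (0.189% of all genes lower) and 14 without clone 10 replicate 1 (2.64%). It was 6 without clone 4 replicate 2 (0.233%), clone 4 replicate 3 (0.175%), clone 10 replicate 2 (0.577%) or clone 10 replicate 3 (0.13%). Within pairs, Acta2, smooth muscle actin, fell by 1.88 (adjusted p = 0.00806), and Postn, a matrix protein of mesenchymal cells, fell by 1.58 (adjusted p = 0.00362).

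The mean of the fibroblast list followed the mean of the 6 members pair by pair. In clone 4 it differed by -1.03, -1.09 and -1.14 between the gates, beside -2.29, -2.70 and -1.61 for the 6 members. In clone 10 it differed by 0.71, -0.75 and -0.81, beside 1.07, -1.44 and -1.42. Replicate 1 of clone 10 was thus higher in the GFP-positive library in both, and the means correlated at 0.899 over 12 libraries. The summed level of the 23 marker genes in the table was 2128 to 4054 CPM in clone 4 GFP-negative, 1776 to 2773 CPM in clone 4 GFP-positive, 1388 to 4873 CPM in clone 10 GFP-negative and 2050 to 3213 CPM in clone 10 GFP-positive libraries. None of the 23 was at 0 in all libraries, and Lum alone stayed under 1 CPM throughout. The part of such cells in the differences of the PYHIN genes was not tested, and in bulk RNA fewer cells of a type and less RNA per cell cannot be told apart.

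Leukocyte markers were included because several PYHIN genes are known from these cells. Of 7 tested, 0 passed between the gates, where 0.85% of all genes were called lower and 2.51% higher within pairs over both clones. A count of 0 among 7 genes is therefore not read as a result. The pan-leukocyte marker Ptprc did not exceed 0.151 CPM, with Lyz2 at most at 0.137 CPM and Tyrobp at 0.0456 CPM. Cd68 and Laptm5 were present at 23.7 CPM and 154 CPM or more. The mean of the leukocyte list correlated with that of the 6 members at 0.615 over the 12 libraries and at 0.792 after the group means were taken away, and its part in the differences was not tested. Markers of the two-cell-like state, a rare state of stem cell cultures, rose in 6 of 13 in the fit of all libraries and in 12 of 13 within pairs, where 0.152% and 2.51% of all genes were called higher. Their mean correlated with that of the 6 members at -0.03 over the 12 libraries and at -0.41 after the group means were taken away. Within pairs 1 of 10 stem cell markers (Fbxo15) and 1 of 6 endothelial markers (Tie1) rose, and without pairs 0 of either did.

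**Figure D4:**
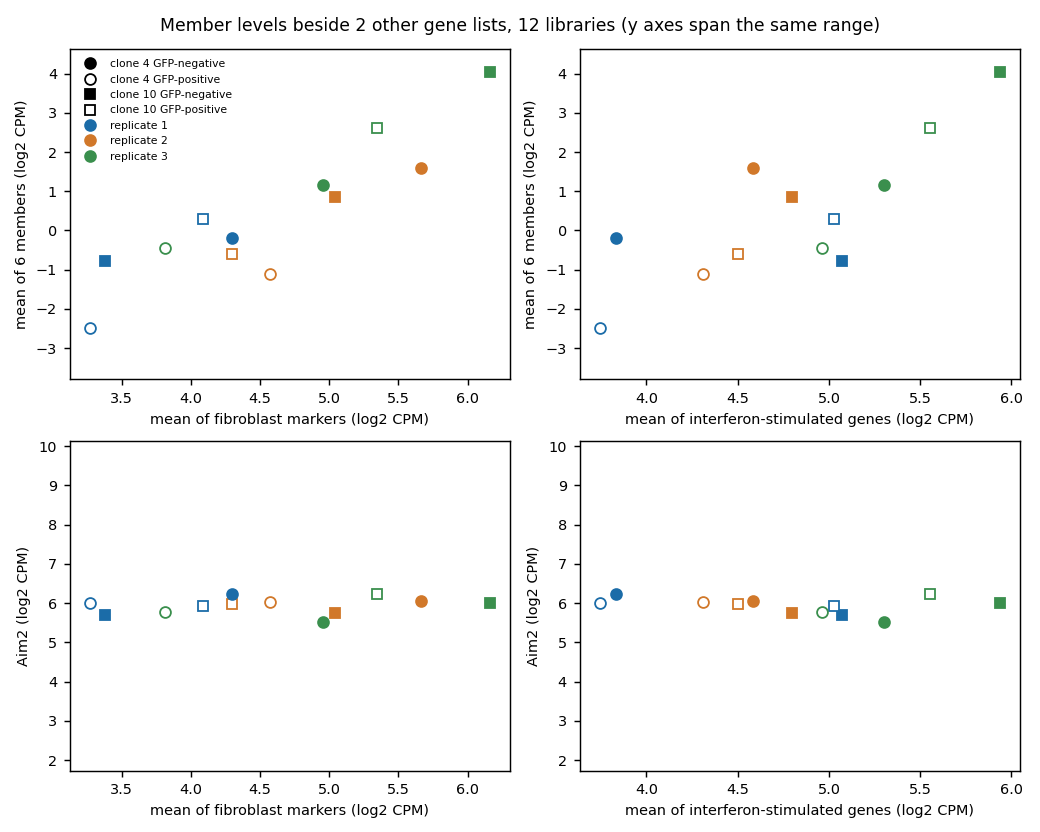
Mean log2 CPM of the 6 members other than Aim2 (top) and log2 CPM of Aim2 (bottom) against the mean of the fibroblast markers (left) and of the interferon-stimulated genes outside the family (right), 1 point per library. The top points rise from lower left to upper right (r = 0.899 and 0.796 over 12 libraries) with the clone 10 replicate 3 libraries at the upper end, and the Aim2 points stay level.

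The genes most like the members were found by correlating log2 CPM over the 12 libraries with the mean of the standardized values of all 7 members. The 8 highest were AI607873 (r = 0.980), Ccl7 (0.959), Phf11b (0.955), Herc6 (0.954), Leprel2 (0.953), A430105I19Rik (0.951), Ifi44 (0.949) and Il1rl1 (0.946). Ccl7 is a chemokine, Il1rl1 the receptor of interleukin-33 and Herc6 the mouse ligase for Isg15. Il1rl1 ranged from 1.20 to 77.0 CPM and Ccl7 from 0.962 to 48.3 CPM. The log2 gate change of Ccl7 within pairs was -1.42 ± 0.37 (SE) in clone 4 and -0.42 ± 0.35 in clone 10, and that of Il1rl1 was -1.88 ± 0.51 and -0.42 ± 0.52.

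Along the cluster, the tested PYHIN genes between Aim2 and the high end were lower in GFP-positive cells in both clones by their fitted values. Outside the members, the log2 change of Gm4955 within pairs was -2.60 ± 0.54 (SE) in clone 4 (adjusted p = 0.139) and -0.61 ± 0.43 in clone 10 (adjusted p = 0.380), and neither passed. That of AI607873 was -1.92 ± 0.46 in clone 4 (adjusted p = 0.247) and -0.80 ± 0.43 in clone 10 (adjusted p = 0.265), and neither passed.

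**Figure D5:**
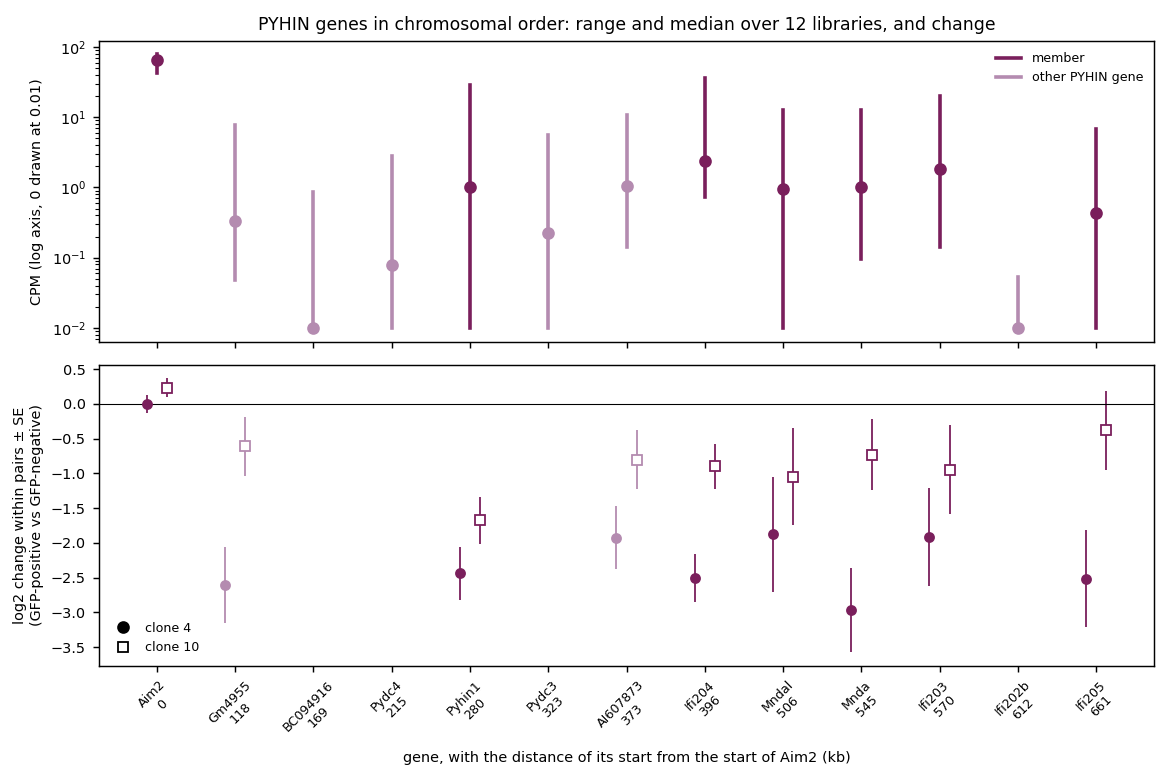
PYHIN genes in chromosomal order, with the distance of each start from that of Aim2 in kb. The upper panel shows the range and median level in CPM over 12 libraries (log axis), and the lower panel the log2 gate change within pairs ± SE in each clone: the tested genes from Gm4955 to Ifi205 lie below 0, and Aim2 lies at 0.00 in clone 4 and 0.23 in clone 10.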

How the data were processed

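RNA of 12 libraries was sequenced. The authors deposited whole-number read counts per gene that were not normalized, used here as deposited. The submitters' processing notes name STAR 2.3.0e, HTSeq 0.6.0, DESeq2, DESeq and mm10. Not given in the sources used here: which annotation release was counted, and whether strand was used. Genes that overlap, antisense ones included, could therefore share reads. Per the file headers, the deposited tables of each clone also hold a signal (counts divided by a size factor), a log2 fold change, a score and p-values. Of these, log2 fold changes were printed.

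Counts were tested with edgeR 4.0.16 in R 4.3.3 (TMM, robust quasi-likelihood test, 1 fit with a term per group, 8 residual degrees of freedom) after its default filter (a level worth 10 counts in a library of median size, in 3 or more libraries, and 15 counts in total). Benjamini-Hochberg adjustment ran over 15179 genes, called under 0.05. The script was tested on simulated data with the dispersion of each fit. A second fit held the pair of a clone and replicate number as a block (4 residual degrees of freedom), since deviations of the 6 same-numbered pairs from their group means correlated at 0.548 to 0.822. Other numbers of a clone gave -0.541 to -0.228, where 3 deviations that sum to 0 force negative values, and libraries of the other clone -0.448 to 0.683, which overlaps the pairs. Passages differ by 1 in 5 of the 6 pairs. With the block, the biological coefficient of variation went from 0.389 to 0.175. The first fit is the planned one. CPM scales counts by the library total, log2 CPM uses a prior count of 2, and per-kilobase levels use merged GENCODE M21 exons.

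The members and all gene lists were chosen with earlier results of these data known. Genes named beyond the members are those of each list that were called, or up to 6 of its most abundant, the detected neighbours within 500 kb outside the family (not reported here), and the 8 most like the members. Ptprc, Lyz2, Tyrobp, Lum, the interferon genes at 0 and PYHIN genes under the filter were named after their values were seen. The alternatives were DESeq2 1.42.0 and its size factors, other filters, each clone alone, the block and leaving out libraries or pairs. Leaving out both libraries of clone 10 replicate 1 or 3, and the exon lengths, were added after seeing the data.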

Additional observations from a re-analysis of the deposited data

How the results depend on the processing

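Counts of called members kept to 0 in the clone comparisons and in the interaction under all alternatives run, with 1 exception: DESeq2 called 1 member between the clones in GFP-positive cells. With the replicate number as a block over both clones, 0 members were called in either gate, and with the pair as a block 0 in the interaction. Signs were less stable. Leaving out 1 library, or both of a clone 10 replicate, the clone difference in GFP-negative cells ranged from -1.27 to 1.95 for Mnda, -0.32 to 0.016 for Aim2, -0.24 to 2.53 for Ifi203, -0.47 to 2.33 for Pyhin1, -1.19 to 2.08 for Ifi205, -1.15 to 1.67 for Ifi204 and -0.45 to 2.50 for Mndal. The low ends came without both libraries of clone 10 replicate 3, except that of Aim2. The interaction without pairs ranged from -0.76 to 2.82 for Ifi203, -1.33 to 2.69 for Pyhin1, -0.39 to 3.71 for Ifi204 and -1.01 to 2.84 for Mndal. The cause was not tested. Depth limits the 6 low members: their counts together were 23 in clone 4 GFP-positive replicate 1.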
